A study of Mus musculus with 6 samples.

Results

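The 10 genes studied here belong to the replication checkpoint and were examined in chromatin immunoprecipitation sequencing (ChIP-seq) data for the transcription factor E2F1: Atr, Atrip, Atm, Chek1, Chek2, Clspn, Timeless, Tipin, Rad17 and Hus1. They are 10 of the 21887 protein-coding genes on the nuclear chromosomes of the annotation used. A peak was counted at a gene when it lay inside the gene's span or within 1000 bp of it. Gene positions are those of GRCm38, named mm10 in the submitters' processing notes. The cells were NIH/3T3, an established line of mouse embryonic fibroblasts that had stably integrated a doxycycline-inducible construct. In the E2F1 group the construct expressed E2F1, and in the empty vector (EV) group it carried no E2F1. Both groups were starved of serum for 48 hours, which puts the cells in a resting state, and then received doxycycline for 12 hours. Each group had 2 libraries with 1 peak list each, and 2 input samples of EV cells were not analysed here. Both groups keep the E2f1 gene of the cells' own, and whether a line was 1 clone or a pool, the promoter of the construct and the antibody are not given in the sources used here. The labels do not say that replicates came from separate cultures, so the spread between them may be technical.

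The replication checkpoint watches over DNA synthesis. When a fork stalls, single-stranded DNA accumulates and recruits the kinase ATR through its partner ATRIP, while the clamp loader RAD17 places the clamp that contains HUS1. Claspin, with TIMELESS and TIPIN at the fork, helps ATR to phosphorylate CHK1, which holds back the cell cycle and origin firing. ATM and CHK2 form a parallel branch that responds mainly to double-strand breaks. E2F factors drive genes needed for entry into S phase, and several genes of this pathway are known among their targets.

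Every one of the 10 genes had an E2F1 peak in at least 1 E2F1 library, and none had a peak in an EV library. In E2F1 replicate 1, 8 of 10 genes had a peak, against 36.9% of all protein-coding genes. In E2F1 replicate 2, 10 of 10 did, against 38.2%. Overlapping peaks of both E2F1 libraries were found at 8 of 10 genes, against 34.4% of protein-coding genes, and the other two, Atrip and Chek2, had a peak in replicate 2 alone. With peaks at or above their list's median score, the numbers were 4 of 10 genes and 17.1%. The 10 genes were chosen with earlier results of these data known, so these counts are a description. The strongest sites in both libraries were those of the fork mediators Clspn, Timeless and Tipin. In EV replicate 1 and EV replicate 2 the number was 0 of 10, where 0.0366% and 0.407% of all protein-coding genes had a peak. The E2F1 libraries thus averaged 9 ± 1.41 genes (SD, n = 2), while both EV libraries were at 0 and the groups did not overlap. The exact two-sided permutation p over libraries was 0.3333. No arrangement of 4 libraries can give a lower one, so this design cannot reach 0.05.

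The E2F1 lists held 7836 and 8027 peaks, and the EV lists 70 and 358. Depth could be judged only roughly, from the lowest local background of each list, 1.85 and 1.86 reads for E2F1 and 2.20 and 1.18 reads for EV. These are minima over lists of very different length, so they do not settle which library was shallower. The median local background of EV replicate 1 was 12.5 reads. EV replicate 2, with the lowest minimum, had its nearest peak to any of the 10 genes at Atr, 564 kb away. Each list holds peaks with a −log10 p-value above 10, so a gene without a peak is not a gene without signal. A lower yield of the immunoprecipitation and less E2F1 in the EV cells cannot be told apart by this design.

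The promoter sequences under these peaks are shown for 5 genes. They are the genes with an E2F-type word in the window, and Rad17, the gene whose window holds the summits of both libraries. A window runs from 250 bases before an annotated start to 50 bases from it onwards, and sequences are those of RefSeq on GRCm38.p6, written 5′ to 3′ on the gene's strand. Capitals mark an 8-letter word (TTTCCCGC, TTTCGCGC, TTTGCCGC or TTTGGCGC, on either strand) or, where there is none, the same word without its first letter. The windows are chr4:126556730-126557029 on the plus strand for Clspn, chr5:110839733-110840032 on the plus strand for Chek2, chr9:36726609-36726908 on the minus strand for Chek1, chr9:53536622-53536921 on the minus strand for Atm and chr13:100651012-100651311 on the minus strand for Rad17.
Clspn: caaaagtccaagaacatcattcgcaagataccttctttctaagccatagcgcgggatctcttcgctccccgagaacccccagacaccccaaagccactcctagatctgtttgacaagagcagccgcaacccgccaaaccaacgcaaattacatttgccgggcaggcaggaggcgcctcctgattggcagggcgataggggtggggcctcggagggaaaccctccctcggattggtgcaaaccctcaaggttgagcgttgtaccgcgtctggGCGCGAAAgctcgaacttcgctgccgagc
Chek2: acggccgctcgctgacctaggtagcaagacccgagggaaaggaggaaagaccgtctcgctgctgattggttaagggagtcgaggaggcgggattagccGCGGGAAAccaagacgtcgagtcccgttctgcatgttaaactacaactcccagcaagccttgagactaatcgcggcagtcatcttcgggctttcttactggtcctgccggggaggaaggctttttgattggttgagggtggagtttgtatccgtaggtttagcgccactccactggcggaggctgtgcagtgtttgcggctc
Chek1: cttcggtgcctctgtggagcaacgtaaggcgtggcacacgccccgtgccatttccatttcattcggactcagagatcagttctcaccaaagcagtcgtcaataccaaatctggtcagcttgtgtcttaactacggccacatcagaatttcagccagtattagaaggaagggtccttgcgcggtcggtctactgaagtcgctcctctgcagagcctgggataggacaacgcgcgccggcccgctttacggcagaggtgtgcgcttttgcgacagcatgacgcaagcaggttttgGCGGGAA
Atm: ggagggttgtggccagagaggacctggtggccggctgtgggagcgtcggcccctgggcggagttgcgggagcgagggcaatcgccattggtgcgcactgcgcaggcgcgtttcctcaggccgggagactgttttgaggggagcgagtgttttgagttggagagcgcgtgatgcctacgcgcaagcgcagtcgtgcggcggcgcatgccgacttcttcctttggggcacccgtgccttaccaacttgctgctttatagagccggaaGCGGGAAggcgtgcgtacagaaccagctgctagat
Rad17: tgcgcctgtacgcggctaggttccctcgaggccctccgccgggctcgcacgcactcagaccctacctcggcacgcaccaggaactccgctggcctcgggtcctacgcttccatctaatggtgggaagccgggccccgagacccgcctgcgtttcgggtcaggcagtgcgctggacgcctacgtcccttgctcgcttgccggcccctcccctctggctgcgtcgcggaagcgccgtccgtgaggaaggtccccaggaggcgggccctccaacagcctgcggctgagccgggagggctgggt

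Of the 10 genes, 9 had a window in the table, and Tipin did not. The listed window of Timeless starts inside the gene, and no peak overlapped it. The other 8 windows were overlapped by a peak, those of Atrip and Chek2 in replicate 2 alone. An 8-letter word was found in 2 of the 9 genes, Clspn and Chek2, against 2.26% of all 32851 windows and 5.89% of the 6993 windows overlapped by peaks of both E2F1 libraries. The shorter words were found in 4 of the 9, with Chek1 and Atm added, against 9.57% of all windows and 23.6% of those under peaks of both libraries. The shares under peaks of both libraries cover a stricter set than the 9 genes, as Atrip, Chek2 and Timeless fall outside it. The genes studied here with a window in that set are Atr, Atm, Chek1, Clspn, Rad17 and Hus1. Among these the 8-letter word was found at Clspn alone, and the shorter words at Clspn, Chek1 and Atm. In Clspn the word GCGCGAAA lay 182 bp from the summit in both libraries. In Chek2 GCGGGAAA lay 111 bp from the summit of replicate 2, and in Chek1 GCGGGAA, at the last bases of the window, lay 123 and 133 bp from the summits. In Atm the same 7 letters lay 568 and 296 bp from the summits. A word in a window is a description of the sequence and not a measured binding site, and most of the summits lay outside the windows searched. The windows of the 9 genes had a G and C content of 52.3% to 71%, while the median was 52.7% over all windows and 65.7% over those under peaks of both libraries.

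The mediators at the fork had the highest values. Values below are the fold enrichment at the summit, the authors' ratio of read pileup to local background, with its rank by fold in its own list. The medians over all peaks were 9.19 in replicate 1 and 11.3 in replicate 2. Timeless, a subunit of the fork protection complex, had a fold of 36.3 in E2F1 replicate 1, where it ranked 124, and of 34.0 in replicate 2, where it ranked 606. The peak ran over chromosome 10 from 128231975 to 128232805 in replicate 1 and from 128231821 to 128232803 in replicate 2, with summits 141 and 163 bp inside the low-coordinate boundary of the gene. The fold of replicate 2 was 0.937 times that of replicate 1, so the raw folds were close at this gene. Over all overlapping pairs of peaks the median ratio was 1.26 and the lower quartile 0.938.

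Clspn encodes claspin, the adaptor through which ATR reaches CHK1. Its peak had a fold of 27.4 in replicate 1 (rank 364) and 36.7 in replicate 2 (rank 504). The summit was at position 126557187 on chromosome 4 in both libraries, 230 bp inside the gene. Both libraries thus placed the strongest enrichment at the same base, while the median gap over the 7138 overlapping pairs of peaks was 56 bp.

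Tipin, the partner of Timeless, had folds of 17.7 (rank 1221) and 27.3 (rank 1028). Its peak covered chromosome 9 from 64281494 to 64282768 in replicate 1 and from 64281435 to 64282153 in replicate 2. It was the third of the 10 genes by fold in both libraries. In replicate 1 it was clear of the next gene, Rad17, at 10.9, and in replicate 2 the next gene, Atm, followed closely at 24.8. The order of Timeless and Clspn by fold differed between the libraries, so fold does not rank them against each other. By read pileup Timeless was higher in both, with 231 against 185 reads in replicate 1 and 217 against 192 in replicate 2. The score of the lists gave the same order. The counting intervals of these reads, given below, overlap between the genes.

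**Figure D1:**
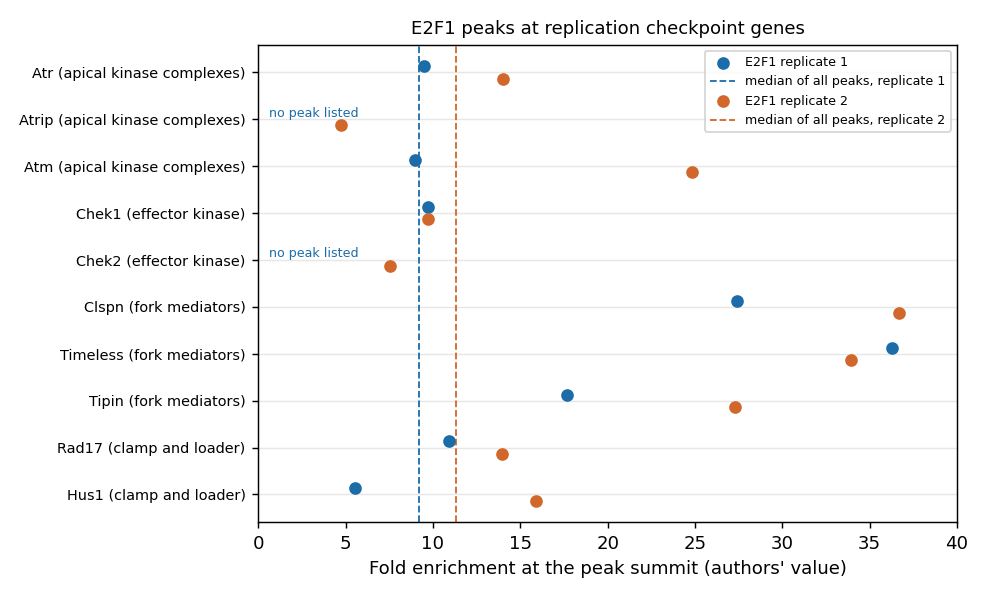
Fold enrichment at the summit (horizontal axis) of the leading peak of each of the 10 genes, 1 point per E2F1 library, with dashed lines at the median of all peaks in each list. Timeless, Clspn and Tipin lie between 17.7 and 36.7, and Atrip and Chek2 have a point from replicate 2 alone.

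The apical kinase complexes had weaker peaks, and the libraries differed at Atm and at Atrip. Atr, which encodes the kinase at the head of the checkpoint, had folds of 9.46 (rank 3767) and 14.0 (rank 3144), both a little above the median of their list. Ranked by pileup instead, its mean percentile over the libraries was 36.0 and not 56.3, which is below the median. Its peak covered chromosome 9 from 95857496 to 95858067 and from 95857420 to 95858338, with summits 80 and 120 bp inside the gene. The span of Atr overlaps that of 1700065D16Rik, so the site belongs to both genes by position. In a promoter window of 1700065D16Rik, the letters GCGGGAA lay 290 and 250 bp from the summits.

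Atm, the kinase of the break response, had a fold of 8.95 in replicate 1 (rank 4060) and 24.8 in replicate 2 (rank 1229). The first value was just under the median of its list and the second was the fourth highest of the 10 genes. The peak covered chromosome 9 from 53536296 to 53537836 and from 53536378 to 53537455, with summits 393 and 121 bp outside the Atm boundary. Npat, which encodes a coactivator of histone gene transcription, begins 60 bp beyond that boundary, and both summits lay within its span. The peak can therefore not be assigned to one of the pair. In the Npat window of the promoter table, the word TTGCCGC lay 184 and 88 bp from the summits.

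Atrip, the partner that brings ATR to single-stranded DNA, had no listed peak in replicate 1, where the nearest one was 20.7 kb away. In replicate 2 its peak, from 109073758 to 109074379 on chromosome 9, had a fold of 4.75 and ranked 7778 of 8027. Its −log10 p of 11.2 was near the lower limit of the list. Of the 495 peaks of replicate 2 with a score within 10% of this one, 50.1% were overlapped by a peak of replicate 1, so absence there was common at this strength.

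Of the effector kinases, Chek1 had the most even raw folds of the 8 genes listed in both libraries. Its percentile of fold was less even, at 54.0 in replicate 1 and 41.0 in replicate 2, above and below the median. That of Rad17, at 61.1 and 60.3, changed less. Chek1 encodes the main kinase downstream of ATR, and its folds were 9.73 in replicate 1 (rank 3602) and 9.70 in replicate 2 (rank 4735). The peak covered chromosome 9 from 36726262 to 36727056 and from 36725885 to 36726882, with summits 10 bp apart. Chek2, the kinase activated by ATM, was listed in replicate 2 alone, with a fold of 7.56 and rank 5846, from 110839462 to 110840609 on chromosome 5. The nearest peak of replicate 1 was 4.77 kb from the gene. Of the 520 peaks of replicate 2 with a score within 10% of it, 75% were overlapped in replicate 1, so most sites of this strength were listed there. The gap between Chek2 and its neighbour Hscb, a gene for iron-sulfur cluster assembly, is 6 bp, so this site too lies at 2 genes.

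Of the clamp genes, Rad17 lay above its list's median fold in both libraries, and Hus1 did so in replicate 2 alone. Rad17, the large subunit of the clamp loader, had folds of 10.9 (rank 3048) and 13.9 (rank 3189). Its peak in replicate 1 was the widest of the 18, with 1857 bp from 100650848 to 100652704 on chromosome 13, against 1094 bp in replicate 2. Both summits lay outside Rad17, by 224 and 167 bp, in the gap of 281 bp to Ak6 and Taf9, which share a boundary there. Hus1, a subunit of the clamp itself, had folds of 5.51 (rank 6854) and 15.9 (rank 2652), from 9010558 to 9011410 and from 9010724 to 9011393 on chromosome 11. It was low in replicate 1 and above the median in replicate 2.

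**Figure D2:**
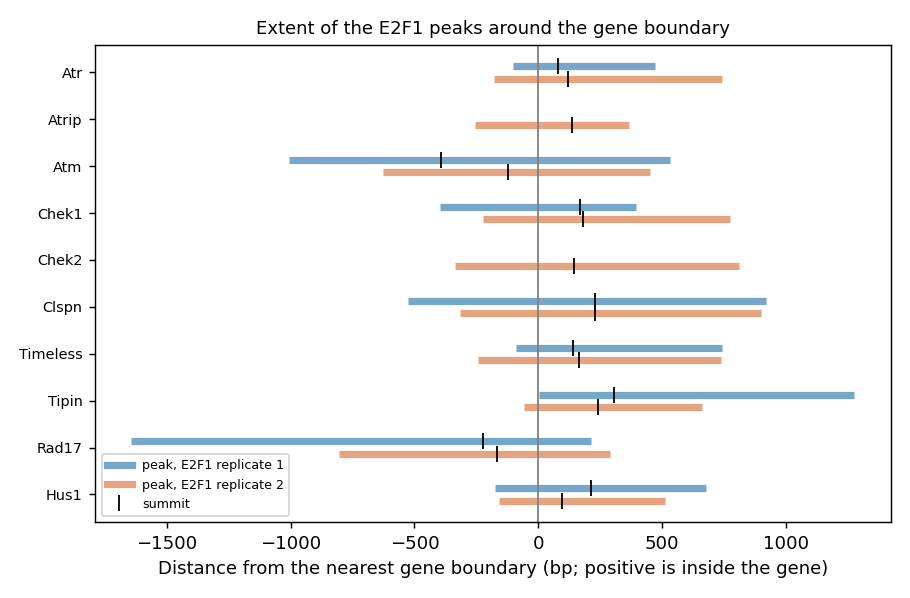
Extent of each peak in bp from the nearest boundary of the gene, positive towards the inside, with the summit as a tick, 1 bar per E2F1 library. Of the 18 peaks, 17 cross the boundary, and the Tipin peak of replicate 1 starts 3 bp inside it.

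All 18 peaks sat at one end of their gene. No gene had more than 1 peak in a list, and 14 summits were inside the gene and 4 outside, from 393 bp outside to 305 bp inside. Of all protein-coding genes with a peak, 92.6% in replicate 1 and 93.4% in replicate 2 also had 1 peak. Among the same genes 83.9% in replicate 1 and 84.8% in replicate 2 had their leading summit within 1000 bp of a boundary, so both features were the usual ones. Where the table gave a start at the same end, as for Atr, Atrip, Atm, Chek1, Chek2, Clspn, Rad17 and Hus1, that end was the start of the gene. Another protein-coding gene lay within 1000 bp of the peak for 5 of 10 genes (Atr, Atm, Chek2, Timeless and Rad17), against 30.6% and 30.4% of protein-coding genes with a peak. For Timeless this neighbour was Mip, a lens channel gene, which ends 250 bp away.

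The reads behind the folds were solved from the deposited fold and p-value, and gave a whole number of reads for all 18 peaks. At Timeless the pileup was 231 reads in replicate 1 (exact Poisson 95% interval 202 to 263) and 217 in replicate 2 (189 to 248). At Clspn it was 185 (159 to 214) and 192 (166 to 221). At Chek1 it was 50 in both libraries (37.1 to 65.9). The intervals of the libraries overlap at these 3 genes, as they do at Atr, Tipin and Rad17, but overlap does not show that the libraries agree. At Tipin, with 112 reads (92.2 to 135) and 153 reads (130 to 179), the overlap is slight. The intervals cover counting error only, since reads are not independent molecules.

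For Atm and Hus1 the intervals of the libraries did not overlap. The summits lay 272 bp apart at Atm and 116 bp apart at Hus1, so the reads were counted at different bases. The Atm pileup was 39 reads in replicate 1 (27.7 to 53.3) and 70 in replicate 2 (54.6 to 88.4). The Hus1 pileup was 30 (20.2 to 42.8) and 58 (44.04 to 74.98). The local background moved the other way, from 3.47 to 1.86 reads at Atm and from 4.63 to 2.71 reads at Hus1. The fold of replicate 2 over that of replicate 1 was therefore 2.78 at Atm and 2.89 at Hus1, where the median over all overlapping pairs was 1.26 and the upper quartile 1.73. A ratio above that of Atm was seen in 4.43% of pairs, and both genes were singled out after their values were seen.

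At Atr, Clspn, Tipin and Rad17 the fold was 1.28 to 1.54 times as high in replicate 2, within the quartiles of all pairs, 0.938 and 1.73. The pileup ratio there was 1.04 to 1.37 and the background ratio 0.688 to 0.860. Over all pairs the median pileup ratio was 1 and the median background ratio 0.753, so a lower background accompanied the higher folds of replicate 2 in general.

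**Figure D3:**
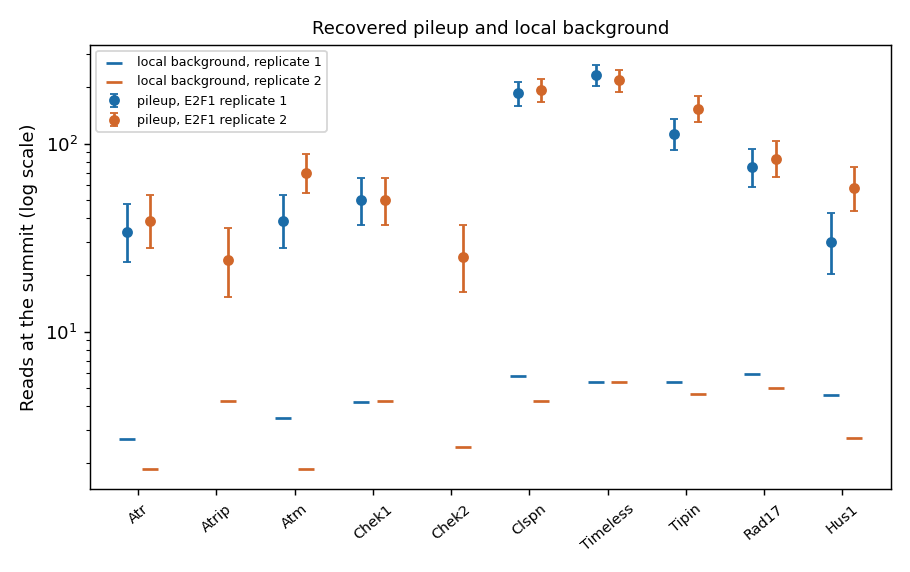
Reads at the summit, on a log scale, for each gene and E2F1 library. Points are the pileup with exact Poisson 95% intervals and dashes the local background, and the intervals of the libraries do not overlap at Atm and Hus1.

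As a group the 10 genes spanned most of the range of peak strength. With a gene without a peak placed at 0, the median percentile of fold was 53.0 in replicate 1, from 0 to 98.4, and 63.8 in replicate 2, from 3.05 to 93.7. The 0 of replicate 1 stands for Atrip and Chek2, and the lowest listed peak there, at Hus1, was at 12.5. In replicate 2, where all 10 had a peak, the median over protein-coding genes with a peak was 53.2. In replicate 1 that median was 54.1, over a set that holds no gene placed at 0. Fold was above the list's median at 6 of 10 genes in replicate 1 and 7 of 10 in replicate 2.

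Other genes of the checkpoint and damage response were taken from a list of 31, all found in the annotation. The list was chosen with earlier results of these data known, so its counts are a description. Overlapping peaks of both E2F1 libraries were present at 29 of 31, against 34.4% of protein-coding genes, and no gene of the list had an EV peak. Their median percentile of fold was 80.4 in replicate 1 and 76.2 in replicate 2, higher than the 53.0 and 63.8 of the 10 checkpoint genes, a difference given without a test because genes are not replicates.

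The gene named first in each group below is the one with the highest mean percentile of fold over both libraries. The remaining clamp and loader genes had peaks in both libraries at 8 of 9, with Rhno1 first, a partner of the clamp, with folds of 25.7 and 45.8. The exception was Hus1b, a paralogue of Hus1, with no peak in either library. Rhno1 had 2 peaks in each library. Its leading summits, at 128363030 in replicate 1 and 128362950 in replicate 2 on chromosome 6, lay outside the gene, which spans 128356999 to 128362911. Neighbouring genes were not looked up for this list, so whether the site belongs to Rhno1 alone was not tested. The clamp subunits Rad1, with folds of 6.25 and 10.2, and Rad9a, with 8.58 and 8.35, were below Atr in each library, while Rad9b, a paralogue of Rad9a, had 17.5 and 21.4. All 5 genes for ATR activators and the single-strand binding protein RPA had them, with Topbp1 first, the activator of ATR that the clamp recruits, at folds of 29.3 (rank 286) and 53.2 (rank 156). In replicate 1 Etaa1, another activator of ATR, was higher, at 33.3. All 8 genes of the MRN complex and the break mediators had them. Mdc1, a scaffold protein at breaks, was first here with folds of 57.4 (rank 15) and 134.4 (rank 1), the highest fold of the replicate 2 list.

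Of the genes for fork protection and partners of claspin, 4 of 5 had peaks of both libraries. By mean percentile Usp7, a deubiquitinase, was first, with folds of 15.9 and 25.4. Its summits, at 8739080 and 8739095 on chromosome 16, lay well inside the gene, which spans 8688722 to 8757067. In replicate 2 Donson (30.4), Usp28 (29.4) and Wdhd1 (25.5) had higher folds. Smarcal1, a fork remodelling enzyme, had a peak in replicate 2 alone, with a fold of 5.61. Its summit, at 72583419 on chromosome 1, also lay well inside the gene, which spans 72536695 to 72636790. All 4 targets of the checkpoint kinases had peaks, with Wee1, the kinase that restrains mitotic entry, first by mean percentile at folds of 15.3 and 46.9. In replicate 1 the fold of Cdc25a, 15.9, was a little higher. Genes of this list other than the first of each group, Hus1b and Smarcal1 were named after their values were seen.

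**Figure D4:**
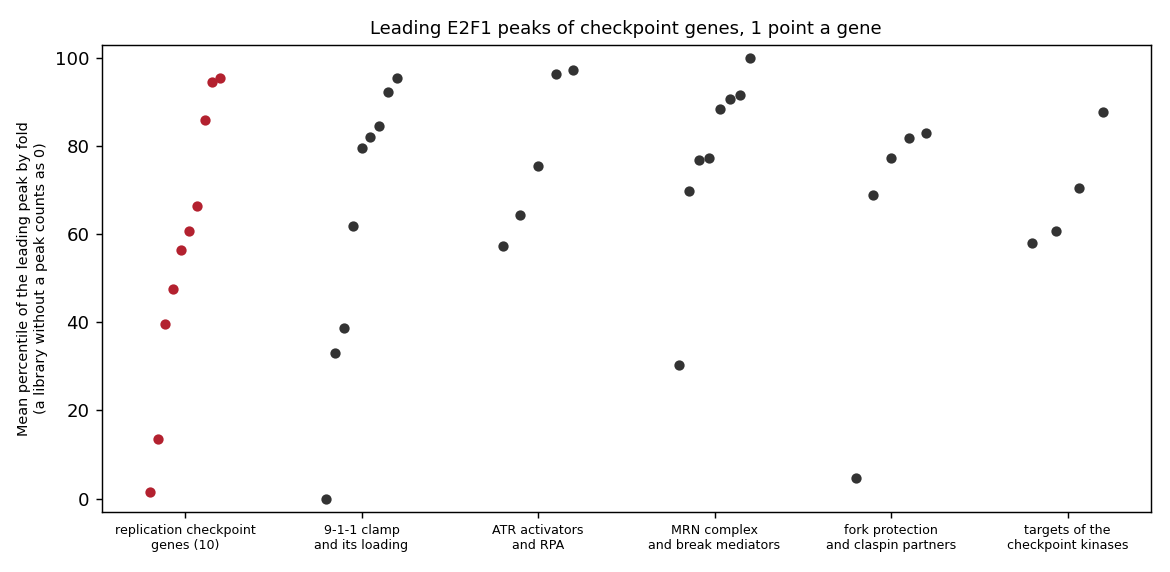
Mean percentile of the leading peak by fold over both E2F1 libraries, 1 point a gene, with 0 for a library without a peak. The 10 checkpoint genes run from 1.53 for Atrip to 95.4 for Timeless, and the other groups reach 99.9 at Mdc1.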

How the data were processed

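E2F1 ChIP-seq peak lists of 4 libraries were used, grouped by the sample titles. The submitters' processing notes name FastQC, Trimmomatic, Bowtie2, MACS2, ChIPseeker and mm10; versions, roles and controls are not given in the sources used here. Each deposited list gives a score per peak, the whole-number part of 10 times its −log10 q, the authors' fold enrichment ratio at the summit, and deposited −log10 p-values and q-values. Peaks were called per sample, as the lists differ. Pileup and background were solved with Python 3.11.15 and scipy 1.17.1 from fold, taken as (pileup + 1)/(background + 1), and an upper Poisson tail, with whole reads accepted within 0.05. At least 95.7% of the peaks of each list gave whole reads, and the solution, tested on simulated data, returned the pileup of 1955 of 1955 simulated peaks. The background comes from the lists, since no library totals were used. The 10 genes and the list of 31 were chosen with earlier results of these data known. Named from the list are the gene with the highest mean percentile in each group and every gene without peaks of both libraries. Replicates were matched by an overlap of at least 1 bp. Alternatives in window, strength, ranking, overlap and library were tried.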

Additional observations from a re-analysis of the deposited data

How the results depend on the processing

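The number of genes with a peak, E2F1 minus EV, stayed at 9 with windows of 0, 500 and 2500 bp. It ran from 8 to 10 when each library was left out in turn, and was 6 with peaks at or above their list's median score. The exact permutation p was 0.3333 each time. With the replicate number as a block the difference was 9 and the exact sign-flip p was 0.5, which 2 pairs cannot go below. Each library gives 1 number, so a pairing by replicate number could not be checked. Genes with peaks of both E2F1 libraries numbered 8 under the 3 windows and a reciprocal overlap of 50%, 7 with summits within 200 bp (without Atm), 10 in the list of replicate 2 alone and 8 in that of replicate 1 alone. At or above the median score 4 remained, Clspn, Timeless, Tipin and Rad17, while the share of protein-coding genes fell from 34.4% to 17.1% and the other checkpoint genes from 29 to 24; weaker peaks were removed by construction. Promoters with a word numbered 4 with the 7-letter words. The median percentile was 58.4 by fold, 58.9 by score, 57.1 by pileup and 53.0 to 63.8 without one E2F1 library. By pileup, the mean percentile of Atr fell to 36.0 from 56.3 and that of Rad17 rose to 77.8 from 60.7, and the cause was not tested. Of the 20 rankings of single genes by score or pileup, 9 moved beyond the spread between libraries.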
